A study of Mus musculus with 18 samples.

Results

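Desmosomes are the adhesive junctions that hold epidermal cells together. The genes described here are 10 of the 21011 genes in the count table, chosen by symbol as the desmosomal cadherins Dsg1a, Dsg1b, Dsg2, Dsg3, Dsc1, Dsc2 and Dsc3 and the plaque proteins Jup, Pkp1 and Dsp, and all 10 were present and passed the filter on low counts. They were measured by RNA-seq of poly(A) RNA in dorsal skin epidermis of 18 mice, 1 library per mouse. Skin was taken at rest in the hair cycle (telogen), and the epidermis was separated from the dermis after overnight trypsin. All mice belonged to a tamoxifen-induced deletion study of Notch signaling, with injection at 8 weeks of age and harvest 10 weeks later.

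The mutants were KR (K14-CreERT with Rbpj deletion, 4 mice), LR (Lrig1-CreERT2 with Rbpj deletion, 3 mice) and KN1 (K14-CreERT1, as the labels spell it, with Notch1 deletion, 4 mice). Their references were the KR controls (2 mice), LR controls (3 mice) and KN1 controls (2 mice) of the same cage batch, so each mutant was compared only within its own batch. The labels do not give the alleles or Cre status that the controls carry, nor the strain. Rbpj encodes the DNA-binding factor through which Notch receptors act, and Notch1 encodes a Notch receptor. K14-CreERT is driven by the promoter of a basal keratin gene, and Lrig1-CreERT2 by the locus of a gene expressed in stem cells of the upper hair follicle and its surroundings, so cells outside these lineages keep the undeleted allele.

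A desmosome joins neighboring cells through desmogleins (Dsg) and desmocollins (Dsc), whose tails bind plakoglobin (Jup) and plakophilins (Pkp1 among them), which in turn bind desmoplakin (Dsp), the link to the keratin filaments. In epidermis the cadherins are layered: Dsg1 and Dsc1 are most abundant in the suprabasal, differentiating layers, while Dsg3 and Dsc3 are most abundant in the basal layer and those above it, and Dsg2 and Dsc2 are the forms of simple epithelia, low in epidermis between follicles. Dsg1 and Dsg3 are the targets of the autoantibodies of pemphigus. In the text, Dsg1a, Dsg1b and Dsc1 are called suprabasal and Dsg2, Dsg3, Dsc2 and Dsc3 basal.

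Library totals ran from 8076316 to 21216169 counts. The deepest were KR control 4 and KN1 control 1, and each joins 2 sequencing runs of its mouse, per the labels. In KN1 mice Notch1 fell to 81.9 to 156 CPM (counts scaled to library size), against 172 to 251 CPM in KN1 controls (log2 fold change -0.91 ± 0.19 SE, adjusted p = 0.0251). Rbpj had 40.9 to 45.9 CPM in KR mice and 58.1 to 60.8 CPM in KR controls (-0.47, adjusted p = 0.135), and 29.9 to 37.9 CPM in LR mice and 42.7 to 73.1 CPM in LR controls (-0.66, adjusted p = 0.0659). Rbpj was also lower in KN1 mice, which carry the Notch1 deletion. It had 30.9 to 36.8 CPM there, against 42.6 to 44.2 CPM in KN1 controls (-0.34, adjusted p = 0.31 by edgeR). Keratinocyte RNA dominated every library: 12 basal keratinocyte genes summed to 29254 CPM or more, against at most 6.44 CPM for 5 endothelial genes and at most 59.1 CPM for 6 fibroblast genes. In bulk tissue, fewer cells of a type and less RNA per cell cannot be told apart.

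Per length of exon, Dsp was the most abundant of the 10 and Dsg2 and Dsc2 the least across the 7 controls. The median level was 610 CPM per kb for Dsp (range 442 to 794), 382 for Pkp1 (242 to 432), 316 for Dsg1a (227 to 383), 308 for Jup (260 to 340) and 239 for Dsc3 (185 to 297). Then followed Dsc1 at a median of 50.7 CPM per kb (31.1 to 61.5), Dsg3 at 21.4 (7.48 to 38.1), Dsg1b at 17.2 (10.9 to 27.1), Dsc2 at 13.4 (1.1 to 28.8) and Dsg2 at 13.3 (6 to 24.8). Dsp stood above and apart from Pkp1, and Dsc3 stood apart from Dsc1, while the ranges of Pkp1, Dsg1a, Jup and Dsc3 overlapped from one to the next. Dsc1 overlapped Dsg3, and the ranges of Dsg3, Dsg1b, Dsc2 and Dsg2 overlapped. Dsg1a, Dsc1 and Dsc3 made up most of the cadherin RNA.

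The 7 cadherin genes lie in a single stretch of mouse chromosome 18 in the GRCm38 build, with the desmocollins on the minus strand (Dsc3 at 18:19960930-20002351, Dsc2 at 18:20030633-20059554, Dsc1 at 18:20084184-20114871) and the desmogleins on the plus strand (Dsg1a at 18:20310811-20343350, Dsg1b at 18:20376729-20410196, Dsg3 at 18:20510274-20547459, Dsg2 at 18:20558074-20604521). Dsg1a and Dsg1b are near copies: 31.6% of the 50-base stretches of Dsg1a exons also occur in Dsg1b, and 45.5% of those of Dsg1b occur in Dsg1a. No source used here states how such reads were counted, which leaves the split between these 2 genes uncertain. Outside the Dsg1 copies no pair of desmosomal genes shared such a stretch. Dsg2 overlaps an antisense transcript, Gm16090, over 330 exon bases, and Dsp overlaps Gm10129 on the other strand over 499, and without strand such reads cannot be told apart. The third Dsg1 copy, Dsg1c, had at most 13 counts in any mouse, and the hair desmoglein Dsg4 at most 28.

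**Figure D1:**
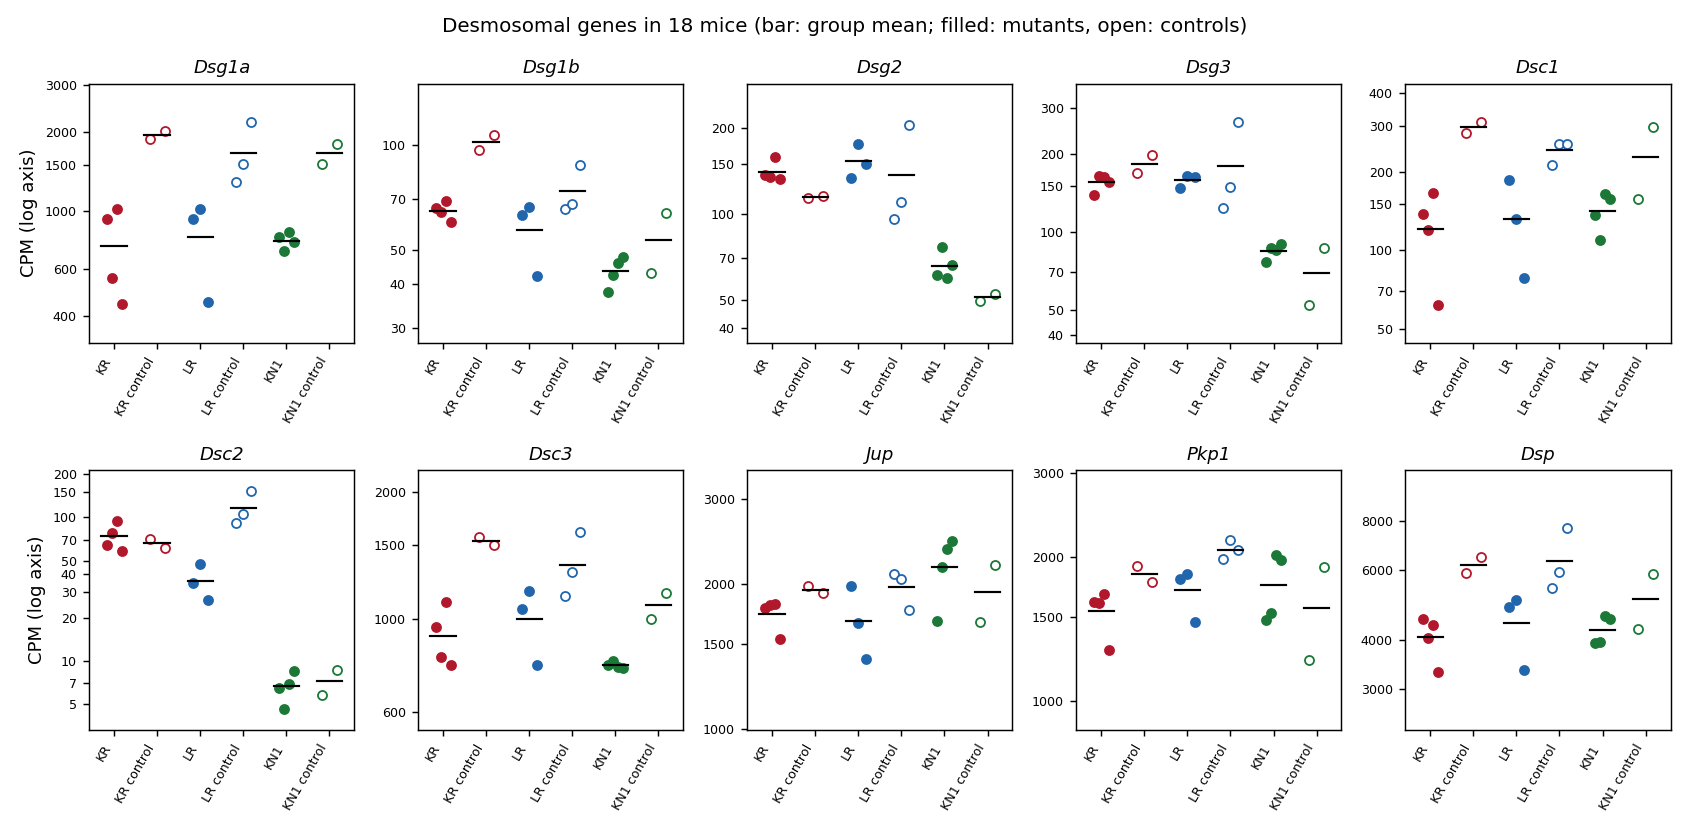
CPM of each of the 10 genes (vertical, log axis) in each mouse of the 6 groups, with mutants as filled points, controls as open points and bars at group means. Dsg1a lies below its controls in all mice of the 3 mutants, Dsc2 is at 26.4 to 47.1 CPM in LR mice against 91.2 to 152 CPM in LR controls, and Dsc2 is under 9 CPM in KN1 mice and KN1 controls.

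Dsg1a, the suprabasal desmoglein with the highest RNA level, was lower in every mutant mouse than in every control of its batch in all 3 comparisons, and it passed the test in KR. Dsg1a had 933, 559, 1016 and 442 CPM in KR 1, 3, 4 and 5, against 1876 and 2022 CPM in KR controls 4 and 6. The mice of the KR group were themselves spread over more than the gap between the controls, with KR 3 and KR 5 the lowest. The mean was 737 ± 280 CPM in KR mice and 1949 ± 103 CPM in KR controls (SD, n = 4 and 2). This is -1.40 ± 0.31 (SE) on the log2 scale, with an adjusted p of 0.0385 by the quasi-likelihood test of edgeR. The call was lost without any 1 of KR 1, KR 3, KR 5, KR control 4, KR control 6, KN1 3 or KN1 4, without the 3 controls that carry a second name, and with the KR cohort fitted alone, with adjusted p from 0.0512 to 0.365, while the log2 fold change stayed between -1.60 and -1.22 over 26 alternatives.

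Dsg1a had 933, 1017 and 450 CPM in LR 1, 2 and 3, against 1289, 1507 and 2177 CPM in LR controls 2, 3 and 5. LR 3 was the lowest and the groups did not overlap (log2 fold change -1.05 ± 0.31, adjusted p = 0.112). In the KN1 cohort it had 797, 703, 829 and 760 CPM in KN1 1 to 4, against 1513 and 1799 CPM in KN1 controls 1 and 7. The KN1 mice were closely grouped, at 772 ± 54.1 CPM in KN1 mice and 1656 ± 202 CPM in KN1 controls (SD, n = 4 and 2; log2 fold change -1.10 ± 0.31, adjusted p = 0.0774). Neither comparison passed the test by edgeR, and both did by DESeq2 (adjusted p = 0.02 for LR and 0.0167 for KN1). The KN1 call was also made with the cohort fitted alone (adjusted p = 0.0175) and without LR 3 (adjusted p = 0.0382), and both calls with all 7 controls pooled.

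Dsg1b, the near copy of Dsg1a, had lower values in KR than in its controls and smaller differences in the other mutants, none past the threshold. It had 65.9, 64.3, 69 and 60.2 CPM in KR 1, 3, 4 and 5, against 96.8 and 107 CPM in KR controls 4 and 6 (log2 fold change -0.65 ± 0.18, adjusted p = 0.0666). The KR groups did not overlap. Dsg1b was called in 6 of 26 alternatives in KR and in 1 of 26 in KN1. Dsg1b had 42.2 to 66.4 CPM in LR mice and 65.6 to 87.5 CPM in LR controls (-0.36 ± 0.17, adjusted p = 0.327), and 38.1 to 48 CPM in KN1 mice and 43.2 to 63.9 CPM in KN1 controls (-0.29 ± 0.18, adjusted p = 0.414), and in both cohorts the ranges overlapped.

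Dsc1, the desmocollin of the differentiating layers, was at the largest negative fold change after Dsg1a in KR, without passing the threshold in any mutant. Dsc1 had 138, 119, 165 and 61.8 CPM in KR 1, 3, 4 and 5, against 282 and 310 CPM in KR controls 4 and 6. KR 5 was the lowest and every KR mouse was below both controls (log2 fold change -1.29 ± 0.34, adjusted p = 0.0598). Dsc1 was called in KR in 8 of 26 alternatives, among them DESeq2 (adjusted p = 0.00858). Dsc1 had 185, 132 and 78.2 CPM in LR 1, 2 and 3, against 212, 255 and 256 CPM in LR controls 2, 3 and 5 (-0.87 ± 0.33, adjusted p = 0.208), again with no overlap and with LR 3 the lowest. In the KN1 cohort Dsc1 had 136, 109, 164 and 157 CPM in KN1 1 to 4, against 157 and 296 CPM in KN1 controls 1 and 7. These ranges overlapped, since KN1 control 1 was as low as the mutants (-0.68 ± 0.34, adjusted p = 0.301). The value was -1.07 without KN1 control 1 and -0.15 without KN1 control 7. Outside KR, Dsc1 was called only with all 7 controls pooled, in LR (adjusted p = 0.0499 by edgeR) and in KN1 (0.0391).

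Dsc3, the main desmocollin by RNA in every group, fell in KR and was below its controls in every KN1 mouse. Dsc3 had 957, 811, 1095 and 777 CPM in KR 1, 3, 4 and 5, against 1562 and 1500 CPM in KR controls 4 and 6. No KR mouse reached the controls, and the means were 910 ± 146 CPM in KR mice and 1531 ± 43.8 CPM in KR controls (SD, n = 4 and 2). The log2 fold change was -0.75 ± 0.17 (adjusted p = 0.0393). Like that of Dsg1a, the call was lost without any 1 of KR 1, KR 3, KR 5, KR control 4, KR control 6, KN1 3 or KN1 4, and also without KN1 2, without the second-named controls and with all 7 controls pooled (adjusted p from 0.0509 to 0.334), with a log2 fold change between -0.85 and -0.54 over 26 alternatives.

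Dsc3 had 776, 795, 768 and 765 CPM in KN1 1 to 4, against 998 and 1155 CPM in KN1 controls 1 and 7 (log2 fold change -0.47 ± 0.17, adjusted p = 0.158). The KN1 mice were close together (SD 13.3 CPM) and all lower than both controls. Dsc3 had 1056, 1163 and 778 CPM in LR 1, 2 and 3, against 1131, 1292 and 1607 CPM in LR controls 2, 3 and 5 (-0.43 ± 0.17, adjusted p = 0.214). LR 2 lay above LR control 2, so these ranges overlapped.

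Dsc2, a desmocollin of low level in epidermis, fell in LR, and its value in KR and KN1 was close to that of their own controls. It had 34.7, 47.1 and 26.4 CPM in LR 1, 2 and 3, against 91.2, 106 and 152 CPM in LR controls 2, 3 and 5. The groups were far apart, at 36.1 ± 10.4 CPM in LR mice and 116 ± 31.7 CPM in LR controls (SD, n = 3 each). The log2 fold change was -1.69 ± 0.25 (adjusted p = 0.00163), or 0.31 of the control level. The call was made in 26 of 27 alternatives, the exception being the use of all 7 controls as a single group (-0.97, adjusted p = 0.407). Dsc2 had 63.9, 77.7, 95.1 and 57.9 CPM in KR 1, 3, 4 and 5, against 70.9 and 60.7 CPM in KR controls 4 and 6 (0.16 ± 0.26, adjusted p = 0.739, 95% interval -0.38 to 0.70), with overlap. In the KN1 cohort Dsc2 was near the low end of the table, with 6.43, 4.63, 6.92 and 8.5 CPM in KN1 1 to 4, against 5.81 and 8.57 CPM in KN1 controls 1 and 7 (-0.09 ± 0.30, adjusted p = 0.897, 95% interval -0.72 to 0.54), from 40 to 114 counts a library.

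Dsg2, the desmoglein of simple epithelia, was the 1 gene of the 10 with a positive fold change in all 3 mutants, and none of the 3 passed. It had 137, 135, 159 and 133 CPM in KR 1, 3, 4 and 5, against 114 and 116 CPM in KR controls 4 and 6 (0.30 ± 0.22, adjusted p = 0.423). Dsg2 had 61.5, 76.7, 59.7 and 66.2 CPM in KN1 1 to 4, against 49.6 and 52.6 CPM in KN1 controls 1 and 7 (0.37 ± 0.22, adjusted p = 0.39). In both cohorts every mutant mouse was above both controls. Dsg2 had 134, 176 and 150 CPM in LR 1, 2 and 3, against 96.2, 110 and 205 CPM in LR controls 2, 3 and 5 (0.16 ± 0.21, adjusted p = 0.764), where LR control 5 exceeded every LR mouse, and the sign turned without LR control 2 (-0.04).

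Dsg3, the basal desmoglein, showed small differences of either sign. Dsg3 had 139 to 164 CPM in KR mice and 168 and 198 CPM in KR controls (-0.24 ± 0.23, adjusted p = 0.547), with every KR mouse below both. It had 147 to 164 CPM in LR mice and 123 to 266 CPM in LR controls (-0.19 ± 0.22, adjusted p = 0.733), and 76.7 to 89.3 CPM in KN1 mice and 52.2 and 86.2 CPM in KN1 controls (0.29 ± 0.24, adjusted p = 0.528). Both of these overlapped. In LR the sign was set by LR control 5, the highest of the controls, without which the log2 fold change was 0.21.

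The plaque genes Jup and Pkp1 showed small differences between mutants and controls, Dsp larger ones in the Rbpj mutants, and none of the 3 passed the test. Dsp, the desmoplakin gene, had 4527, 4031, 4350 and 3319 CPM in KR 1, 3, 4 and 5, against 5895 and 6472 CPM in KR controls 4 and 6 (log2 fold change -0.61 ± 0.19, adjusted p = 0.0877). Dsp had 4836, 5044 and 3351 CPM in LR 1, 2 and 3, against 5399, 5931 and 7665 CPM in LR controls 2, 3 and 5 (-0.52 ± 0.18, adjusted p = 0.17). Neither cohort overlapped, and KR 5 and LR 3 were the lowest mice. Dsp was called in KR in 2 of 26 alternatives. In the KN1 cohort Dsp had 3923 to 4607 CPM in KN1 mice and 4265 and 5879 CPM in KN1 controls (-0.26 ± 0.19, adjusted p = 0.493), with overlap. The value was -0.47 without KN1 control 1 and -0.01 without KN1 control 7.

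Jup, the plakoglobin gene, had 1781, 1813, 1819 and 1536 CPM in KR 1, 3, 4 and 5, against 1981 and 1915 CPM in KR controls 4 and 6 (-0.17 ± 0.17, adjusted p = 0.585, 95% interval -0.53 to 0.20). The KR mice were all below both controls, by a small margin. Jup had 1396 to 1980 CPM in LR mice and 1770 to 2103 CPM in LR controls (-0.24 ± 0.16, adjusted p = 0.515), and 1673 to 2463 CPM in KN1 mice and 1672 and 2190 CPM in KN1 controls (0.17 ± 0.17, adjusted p = 0.644), and both overlapped. Pkp1, the plakophilin of stratified epithelia, had 1276 to 1673 CPM in KR mice and 1773 and 1917 CPM in KR controls (-0.26 ± 0.18, adjusted p = 0.398). Pkp1 had 1464 to 1844 CPM in LR mice and 1981 to 2171 CPM in LR controls (-0.28 ± 0.17, adjusted p = 0.444), without overlap in either Rbpj cohort. In the KN1 cohort it had 1475 to 2021 CPM in KN1 mice and 1217 and 1904 CPM in KN1 controls (0.17 ± 0.18, adjusted p = 0.673), with overlap.

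Because Rbpj binds DNA at the core sequence TGGGAA, often within GTGGGAA, the 250 bases before the RefSeq start of Jup and of Dsp (GRCm38.p6) were searched on both strands and are shown 5′ to 3′ on the gene's own strand, with TGGGAA in capitals. Jup lies on the minus strand (11:100397791-100398040 for the window) and Dsp on the plus strand (13:38151044-38151293). The GC content was 62% for Jup and 72.4% for Dsp.
Jup: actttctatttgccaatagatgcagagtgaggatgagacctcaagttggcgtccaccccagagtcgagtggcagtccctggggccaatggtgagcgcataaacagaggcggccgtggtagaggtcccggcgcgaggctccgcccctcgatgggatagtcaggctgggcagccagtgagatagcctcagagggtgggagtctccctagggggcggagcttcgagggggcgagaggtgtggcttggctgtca
Dsp: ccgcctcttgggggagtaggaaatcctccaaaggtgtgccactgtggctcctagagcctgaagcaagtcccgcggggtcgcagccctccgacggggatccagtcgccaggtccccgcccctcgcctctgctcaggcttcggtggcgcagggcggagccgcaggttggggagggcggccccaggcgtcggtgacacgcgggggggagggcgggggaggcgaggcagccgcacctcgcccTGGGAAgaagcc
The Dsp window held the core once, in the sense orientation, beginning at position -12 from the start site, and the Jup window did not hold it. Neither held GTGGGAA. Of 32851 windows of the same length and position in the RefSeq table, 7094 (21.6%) held TGGGAA or its reverse complement and 1779 (5.42%) held GTGGGAA or its reverse complement, which contains TGGGAA. A match in letters is a description and not a binding site.

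Of the 10 genes, 2 fell in KR (Dsg1a and Dsc3), 1 fell in LR (Dsc2) and none fell in KN1, and none rose in any of the 3, by DESeq2 or at an unadjusted p under 0.05 either. Over all 16517 genes tested, 0.902% were called lower and 0.696% higher in KR, 0.248% lower and 0.872% higher in LR, and 1.11% lower and 0.86% higher in KN1. The count of 0 in KN1 is by edgeR, where 2 members (Dsg1a and Dsc3) were lower at an unadjusted p under 0.05, against 9.28% of all genes, and DESeq2 called 1, Dsg1a. At an unadjusted p under 0.05, 5 were lower in KR against 11.7% of all genes and 5 in LR against 7.65%. DESeq2 called 5 lower in KR (Dsg1a, Dsg1b, Dsc1, Dsc3 and Dsp) and 2 in LR (Dsg1a and Dsc2), against 3.28% of all genes called lower by DESeq2 in KR, 1.25% in LR and 2.55% in KN1.

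The fold change was negative for 8 members in KR, 9 in LR and 6 in KN1, with a median of -0.43 for KR, -0.40 for LR and -0.17 for KN1 mice on the log2 scale, beside medians over all genes of 0.04, 0 and 0.02. Every mutant mouse was below every control for 8 members in KR, 5 in LR and 2 in KN1, against 19.5%, 9.29% and 14.3% of all genes in these cohorts. Every mutant mouse was above every control for 1 member in KR and 1 in KN1, Dsg2 in both, and for 0 in LR, against 19%, 13.8% and 10.3% of all genes. By role, the median log2 fold change of the 3 suprabasal cadherins was -1.29 in KR, -0.87 in LR and -0.68 in KN1, where it is the value of Dsc1 in each. That of the 4 basal cadherins was -0.04, -0.31 and 0.10, and that of the 3 plaque genes was -0.26, -0.28 and 0.17, in the same order of mutants. The basal cadherins differed among themselves, so their median does not describe each gene. In KR they were at -0.75 for Dsc3, which was called, -0.24 for Dsg3, 0.16 for Dsc2 and 0.30 for Dsg2. In LR they ran from -1.69 for Dsc2 to 0.16 for Dsg2.

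**Figure D2:**
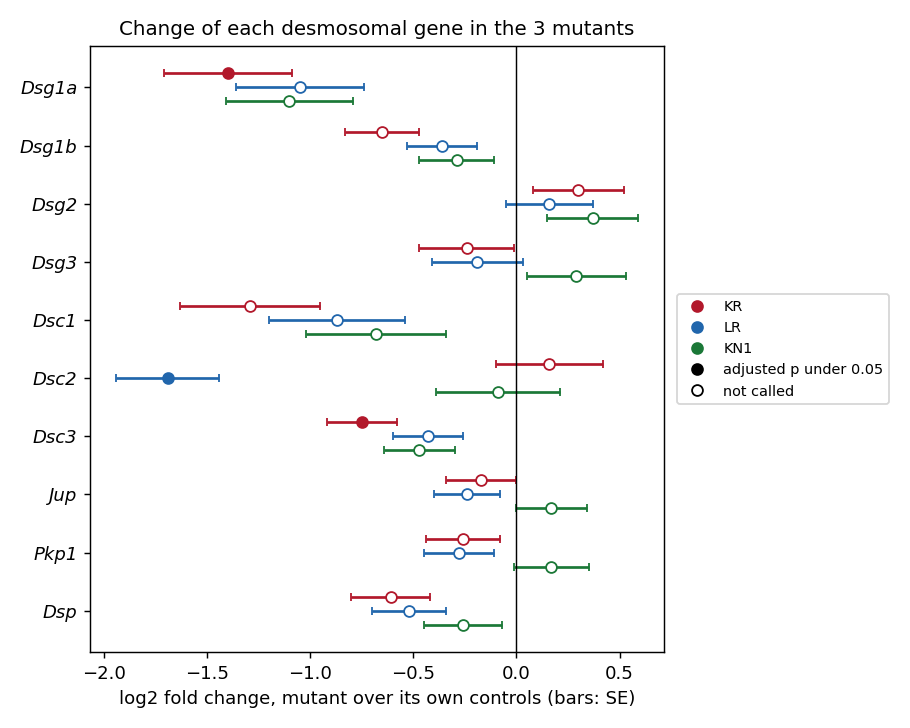
Log2 fold change of each of the 10 genes, mutant over its own controls (horizontal, bars show the SE), with KR, LR and KN1 in separate colors and filled points for adjusted p under 0.05. The 3 filled points are Dsg1a in KR (-1.40), Dsc3 in KR (-0.75) and Dsc2 in LR (-1.69), and Dsg1a and Dsc1 are left of 0 in every mutant.

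No member passed the test of a difference between mutants' changes by edgeR, and Dsc2 came nearest. The change of Dsc2 in KR minus that in LR was 1.85 ± 0.36 on the log2 scale (95% interval 1.09 to 2.61, unadjusted p = 7.95e-05, adjusted p = 0.429), and DESeq2 gave an adjusted p of 0.00786. The change of Dsc2 in LR minus that in KN1 was -1.60 ± 0.39 (unadjusted p = 0.000752, adjusted p = 0.234), with an adjusted p of 0.0298 by DESeq2. The KR change minus the KN1 change was 0.25 ± 0.39 (adjusted p = 0.898). Members past an unadjusted p of 0.05 numbered 1 for KR minus LR, 0 for KR minus KN1 and 1 for LR minus KN1, which was Dsc2 where there was 1, against 4.15%, 7.57% and 7.04% of all genes. Over all genes edgeR called 0.00605%, 0% and 0.00605% of these differences, and DESeq2 called 1, 0 and 1 members.

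For Dsg1a the 3 changes were alike in size and their differences had wide intervals. The KR change minus the LR change was -0.35 ± 0.44 (95% interval -1.28 to 0.58), the KR change minus the KN1 change -0.30 ± 0.45 (-1.26 to 0.66), and the LR change minus the KN1 change 0.05 ± 0.44 (-0.88 to 0.98). For Dsc3 the KR change minus the LR change was -0.32 ± 0.24 (-0.83 to 0.18). These intervals do not show that the mutants acted alike.

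Within the desmogleins, the share held by the suprabasal forms was lower in every mutant mouse than in every control of its batch. On the per-length scale Dsg1a and Dsg1b together made up 83.2%, 74.2%, 82.1% and 70.8% of the RNA of the 4 desmogleins in KR 1, 3, 4 and 5, against 90.3% and 90% in KR controls 4 and 6. The share was 82.9%, 81.4% and 68.5% in LR 1, 2 and 3, against 89.2%, 89.1% and 86.6% in LR controls 2, 3 and 5. It was 89%, 86.1%, 89% and 87.5% in KN1 1 to 4, against 95.4% and 94.7% in KN1 controls 1 and 7. The KN1 mice thus had shares near those of the KR and LR controls, and KR 5 and LR 3 had the lowest shares of all. The 2 Dsg1 genes differ in exon length, so the handling of their shared reads can move this share.

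Within the desmocollins, Dsc1 made up 12.6%, 12.5%, 12.9% and 7.33% in KR 1, 3, 4 and 5, against 15.6% and 17.5% in KR controls 4 and 6, with no overlap. It was 9.42% to 15.4% in LR mice and 13.5% to 16.3% in LR controls, and 12.7% to 18.5% in KN1 mice and 14.3% and 21.4% in KN1 controls, and both of these overlapped. Dsc2 made up 5.59% to 7.81% in KR mice and 3.28% and 3.75% in KR controls. The CPM of Dsc2 itself overlapped between KR mice and KR controls (log2 fold change 0.16). The other desmocollins in this share were lower in KR (-0.75 for Dsc3 and -1.29 for Dsc1). In the LR cohort the Dsc2 share was 2.75% to 3.57% in LR mice and 6.43% to 7.64% in LR controls, and there Dsc2 itself was lower (-1.69). It was 0.518% to 0.924% in KN1 mice and 0.508% and 0.593% in KN1 controls.

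**Figure D3:**
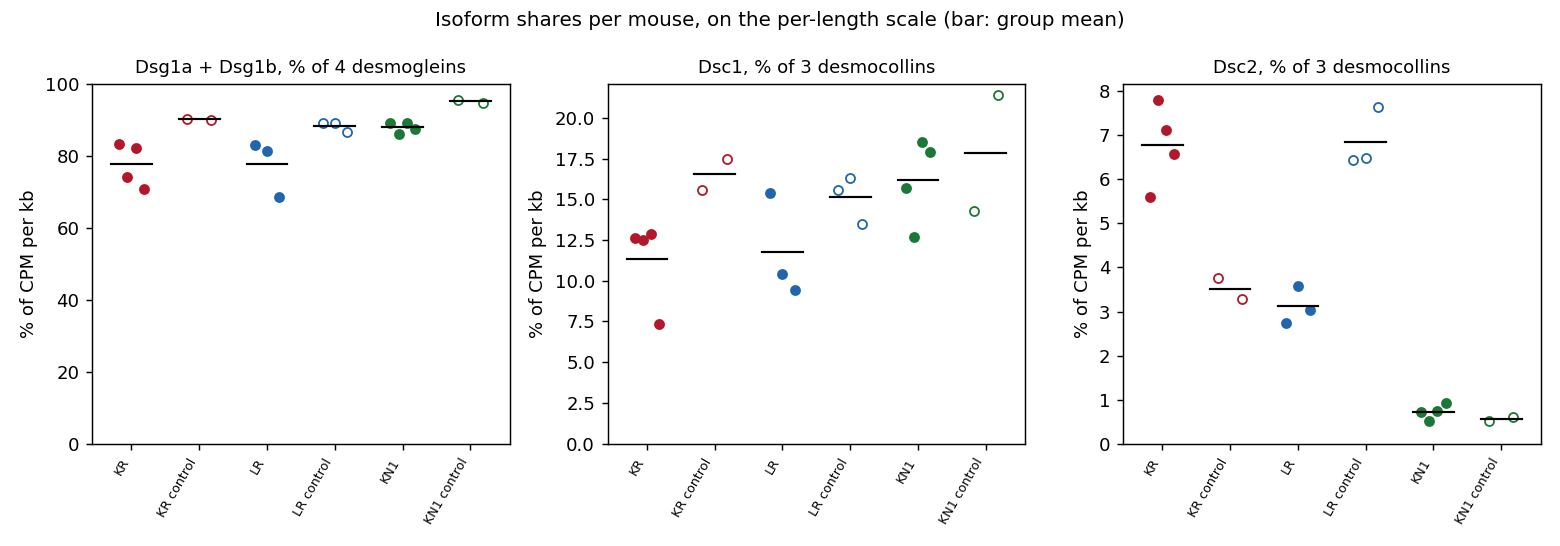
Share of desmoglein RNA held by Dsg1a and Dsg1b, of desmocollin RNA held by Dsc1, and of desmocollin RNA held by Dsc2 (vertical, percent of CPM per kb) in each mouse, with bars at group means. The Dsg1 share separates mutants from controls in each cohort (70.8% to 83.2% in KR mice against 90% and 90.3% in KR controls). The Dsc2 share is higher in KR, lower in LR and under 1% in the KN1 cohort. The CPM of Dsc2 itself overlaps between KR mice and KR controls.

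As a single measure of the balance, the mean log2 CPM of the 3 suprabasal cadherins minus that of the 4 basal ones was 0.14, -0.25, -0.01 and -0.56 in KR 1, 3, 4 and 5, against 0.79 and 0.93 in KR controls 4 and 6. The difference of group means was -1.03, or -0.67 with Dsg2 and Dsc2 left out of the basal forms. It was 0.44, 0.06 and -0.39 in LR 1, 2 and 3, against 0.48, 0.45 and 0.10 in LR controls 2, 3 and 5, a difference of -0.31 with overlap, or -0.10 without LR 3 and -0.51 without LR 1. In KN1 1 to 4 it was 1.19, 1.06, 1.35 and 1.18, against 1.79 and 1.98 in KN1 controls 1 and 7, a difference of -0.69, which turned to 0.26 against all 7 controls pooled. The balance was thus lower in every KR and KN1 mouse than in the controls of its batch. No test was made of this score. The fall of Dsc2 in LR lowers the basal mean in that cohort.

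The mice with the lowest desmosomal values in KR and LR also had the lowest suprabasal marker levels of their groups. KR 5 was the lowest KR mouse for 9 of the 10 genes, and LR 3 the lowest LR mouse for 8 of 10. The KN1 group was less uniform, with KN1 1 lowest for 5 of 10 and KN1 2 for 3. The summed level of 18 suprabasal keratinocyte genes (keratins and cornified envelope genes) was 47439, 29969, 40158 and 23632 CPM in KR 1, 3, 4 and 5, against 50339 and 50847 CPM in KR controls 4 and 6. It was 49268, 42865 and 20781 CPM in LR 1, 2 and 3, against 57700, 53030 and 35365 CPM in LR controls 2, 3 and 5. In KN1 1 to 4 it was 58778, 56354, 71546 and 60111 CPM, against 70137 and 69800 CPM in KN1 controls 1 and 7. KR 5 and LR 3 were again lowest in their groups, and the KR mice were all below the KR controls. In the KN1 group the lowest sum was in KN1 2 and not in KN1 1. LR 1 and LR 2 were above LR control 5, which had the highest Dsg1a, Dsc3 and Dsp of the LR cohort, and KN1 3 was above both KN1 controls.

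None of these 18 genes was called in any mutant by edgeR. At an unadjusted p under 0.05, 5 in KR, 1 in LR and 1 in KN1 were lower, and 1 in KN1 was higher. DESeq2 called 2 lower in KR and 0 in LR and KN1. The median log2 fold change was -0.39 for KR, -0.25 for LR and -0.20 for KN1 mice. None was at 0 in any group. Summed over 12 basal keratinocyte genes, the level was 34734 to 41997 CPM in KR mice and 30473 to 33002 CPM in KR controls, 33637 to 35449 CPM in LR mice and 29254 to 33173 CPM in LR controls, and 38460 to 44495 CPM in KN1 mice and 38329 to 43606 CPM in KN1 controls. Most of this sum is Krt5 and Krt14, at means of 16673 and 10324 CPM in KR mice. The median log2 fold change of the 12 genes was 0.06 for KR, 0 for LR and 0.14 for KN1 mice. Of the 12, 5 were negative in KR, 6 in LR and 3 in KN1. The Langerhans cell list of 7 genes summed to 1791 to 2055 CPM in KR mice and 845 to 1399 CPM in KR controls, and to 1278 to 1576 CPM in KN1 mice and 1787 to 2501 CPM in KN1 controls. In LR mice the Langerhans sum was 1094 to 1721 CPM, against 742 to 1144 CPM in LR controls, with overlap. Of these 7 genes, Mfge8 rose in KR by edgeR (log2 fold change 1.14, adjusted p = 0.048). DESeq2 called 3 of them higher in KR, 1 higher in LR and 1 lower in KN1. The sebocyte list of 12 genes summed to 2729 to 3344 CPM in LR mice and 4526 to 4858 CPM in LR controls, to 3973 to 10670 CPM in KR mice and 5262 to 5505 CPM in KR controls, and to 3356 to 5470 CPM in KN1 mice and 3776 to 4360 CPM in KN1 controls. Bulge and outer root sheath genes, 9 in all, summed to 7917 to 9511 CPM in KR mice and 9684 to 10200 CPM in KR controls. Their sums overlapped in LR (8647 to 8878 CPM in LR mice, 8603 to 9710 CPM in LR controls). They also overlapped in KN1 (11895 to 14512 CPM in KN1 mice, 12909 to 15326 CPM in KN1 controls).

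Lists of rarer cells also differed in some cohorts and overlapped in others. The epidermal T cell list of 8 genes summed to 50.8 to 90.6 CPM in KN1 mice and 118 to 178 CPM in KN1 controls, where 3 of the 8 fell, and to 35.2 to 54 CPM in LR mice and 57.6 to 118 CPM in LR controls. In KR mice the T cell sum was 51.8 to 65.5 CPM, against 53.3 to 64.6 CPM in KR controls, with overlap. The melanocyte list of 7 genes summed to 66.9 to 93.7 CPM in KN1 mice and 48.3 to 52.5 CPM in KN1 controls. The melanocyte sums overlapped in KR (77 to 129 CPM in KR mice, 62.3 to 117 CPM in KR controls). They also overlapped in LR (69.5 to 121 CPM in LR mice, 79.2 to 82.5 CPM in LR controls). For 7 macrophage and neutrophil genes the sum was 79.3 to 108 CPM in KR mice and 42.3 to 70.4 CPM in KR controls. The macrophage and neutrophil sums overlapped in LR (47.9 to 65.1 CPM in LR mice, 42.9 to 67.7 CPM in LR controls). They also overlapped in KN1 (47.7 to 62.3 CPM in KN1 mice, 60.7 to 82 CPM in KN1 controls). Hair matrix, shaft and inner root sheath genes, 21 in all, varied widely between mice within groups, though all skin was labelled as telogen. Their sum was 685 to 1720 CPM in KR mice and 811 to 1393 CPM in KR controls, 538 to 1877 CPM in LR mice and 613 to 1232 CPM in LR controls, and 468 to 1678 CPM in KN1 mice and 417 to 1134 CPM in KN1 controls. Krt71, a keratin of the inner root sheath, had 0.475 to 194 CPM in KR mice and 0.531 to 136 CPM in KR controls, 1.51 to 198 CPM in LR mice and 0.268 to 128 CPM in LR controls, and 5.54 to 200 CPM in KN1 mice and 0.217 to 0.459 CPM in KN1 controls. Of the 21 genes, 0 were called in any mutant by edgeR and 0 passed an unadjusted p of 0.05, while DESeq2 called 3 higher in KN1 and 0 in KR and LR, and Krt72 and Krt33b were at 0 in KN1 controls. The part that these cell types play in the desmosomal values was not tested.

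The controls of the 3 cohorts were not alike in these genes. KN1 controls had 5.81 and 8.57 CPM of Dsc2, against 60.7 and 70.9 CPM in KR controls and 91.2 to 152 CPM in LR controls. The log2 difference of KN1 controls from the other controls together was -3.63 ± 0.32 (adjusted p = 2.97e-06), which is 0.0808 of their level. Dsg3 (-1.40 ± 0.24, adjusted p = 0.000854), Dsg2 (-1.29 ± 0.23, adjusted p = 0.000909) and Dsg1b (-0.70 ± 0.19, adjusted p = 0.0108) were also lower in KN1 controls, with every KN1 control below every other control for each of the 4. The share of all genes separated in this way was not computed for this comparison.

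In this comparison 4 of the 10 genes were lower and 0 higher by edgeR, against 12.3% of all genes lower and 13.4% higher. None of the 10 was higher by DESeq2 or at an unadjusted p under 0.05, and 5 were lower at that p. The share of all genes at that p was not computed here. Dsg1a (-0.12 ± 0.31), Dsc1 (-0.24 ± 0.34) and Jup (-0.02 ± 0.17) were among those that did not pass. Without KN1 control 1 the value of Dsg1b was -0.44 (adjusted p = 0.186). The comparison was added after the values were seen, and cage batch and any difference in strain or handling between cohorts cannot be told apart. In KN1 mice too, Dsc2 (4.63 to 8.5 CPM), Dsg2 (59.7 to 76.7 CPM) and Dsg3 (76.7 to 89.3 CPM) were below every KR and LR control.

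Other genes of the desmosome and of neighboring junctions showed few calls. Of 12 further desmosome and cornified-desmosome genes, 0 passed in any mutant by edgeR, with 3 in KR, 2 in LR and 2 in KN1 lower and 1 in KN1 higher at an unadjusted p under 0.05. DESeq2 called 3 lower in KR (Perp, Ppl and Tmem65), 0 in LR and 1 in KN1 (Perp). Tmem65 had a log2 fold change of -0.67 in KR (adjusted p = 0.0519 by edgeR), and its place in desmosomes was not tested. Perp, a membrane protein of desmosomes, had 2341 ± 345 CPM in KR mice and 3682 ± 134 CPM in KR controls (SD, n = 4 and 2), or -0.65 on the log2 scale (adjusted p = 0.0528). Its log2 fold change was -0.45 for LR (adjusted p = 0.176) and -0.62 for KN1 mice (adjusted p = 0.0606). Ppl, the periplakin gene of the plaque and cornified envelope, had 740 ± 149 CPM in KR mice and 1154 ± 51.6 CPM in KR controls (SD, n = 4 and 2), or -0.64 on the log2 scale (adjusted p = 0.0805).

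Of the keratins that desmosomes anchor, Krt14, a basal keratin, rose in KR, at 10324 ± 1366 CPM in KR mice and 5832 ± 223 CPM in KR controls (SD, n = 4 and 2; log2 fold change 0.82 ± 0.16, adjusted p = 0.0211). It was the 1 call among 11 keratin genes in KR by edgeR, where 4 were higher and 2 lower at an unadjusted p under 0.05 and DESeq2 called 3 higher. By edgeR 0 were called in LR and KN1, where 3 in LR and 1 in KN1 were past an unadjusted p of 0.05 and DESeq2 called 2 in LR and 0 in KN1. Krt1, a keratin of the layers where Dsg1 and Dsc1 are found, had a log2 fold change of -0.90 for KR (adjusted p = 0.163), -0.69 for LR (0.367) and -0.84 for KN1 mice (0.236). Of 15 tested genes for desmosome-cutting proteases and their inhibitors, 0 passed in any mutant by edgeR, with 6 in KR, 2 in LR and 3 in KN1 at an unadjusted p under 0.05, and DESeq2 called 2 in KR and 0 in LR and KN1. The inhibitor gene Spink5 had 382 ± 95.5 CPM in KR mice and 735 ± 34.1 CPM in KR controls (SD, n = 4 and 2; -0.94, adjusted p = 0.0644), and the protease gene Klk5 had 60.5 ± 21.2 CPM in KR mice and 155 ± 68.2 CPM in KR controls (-1.35, adjusted p = 0.103).

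The calls of Dsg1a and Dsc3 in KR were near the threshold and moved across it with the mice included, while the call of Dsc2 in LR did not unless controls of other batches entered. Dsg1a was called in 17 of 26 alternatives and Dsc3 in 16 of 26, with a negative fold change in each.

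**Figure D4:**
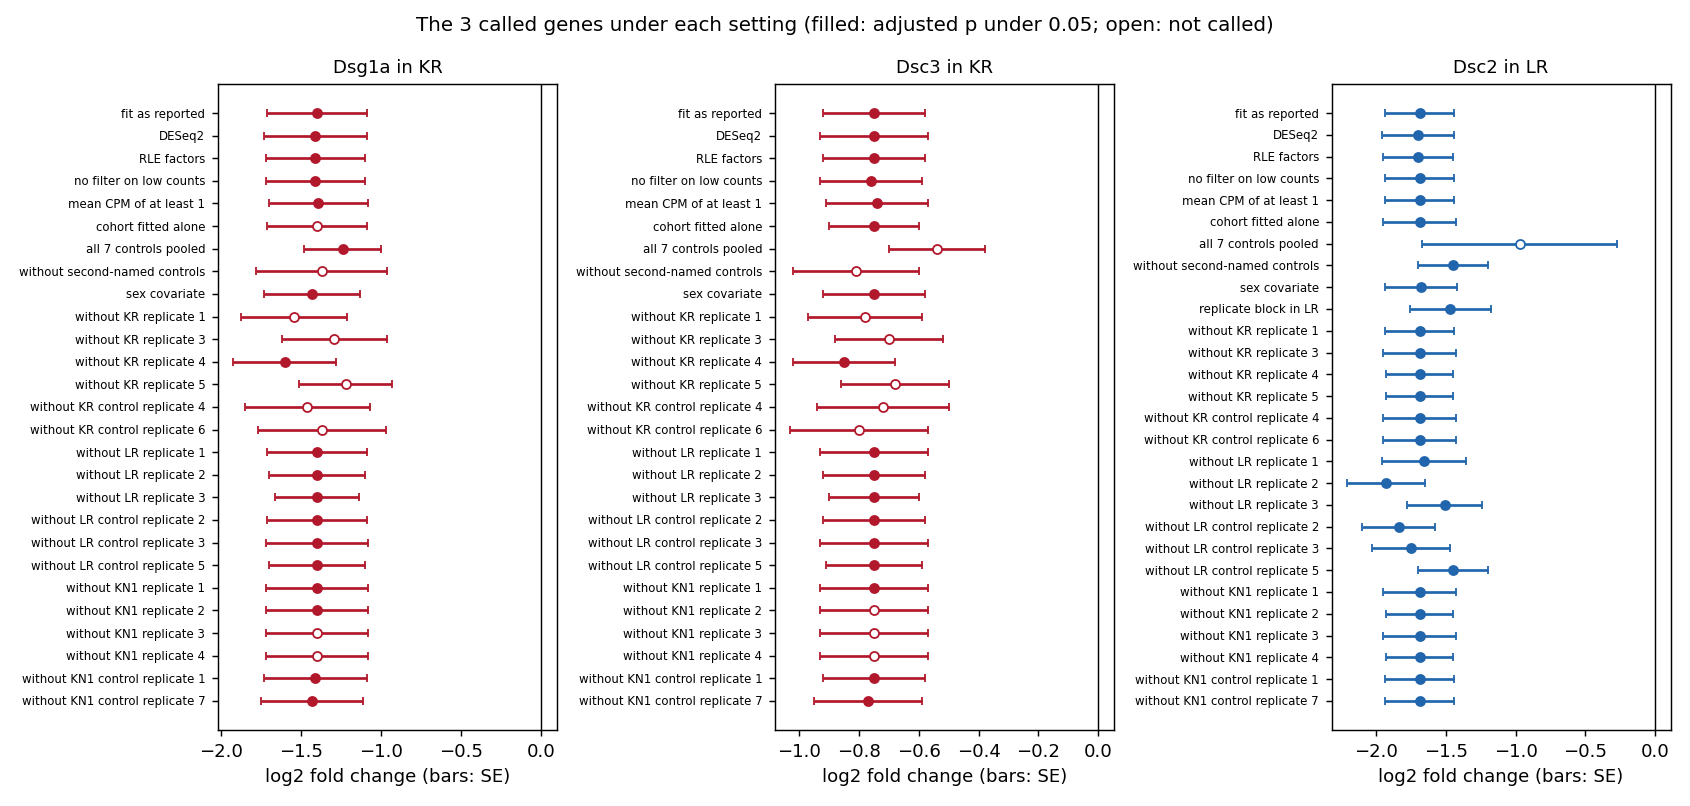
Log2 fold change with SE (horizontal) of Dsg1a in KR, Dsc3 in KR and Dsc2 in LR under each setting (vertical), filled where the adjusted p was under 0.05. All points lie left of 0, Dsg1a is called in 17 of 26 alternatives, Dsc3 in 16 of 26 and Dsc2 in 26 of 27. The alternatives include fits that leave out only a mouse of another cohort.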

How the data were processed

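The deposited table holds raw read counts per gene made by the authors, 21011 genes by 18 columns, with no normalization, and each column was matched to a mouse by its name. Per the submitters' processing notes, STAR, HTSeq and DESeq2 were used by the authors, on build mm10. Versions, and whether counting used strand, are not given in the sources used here. Here, edgeR 4.0.16 (R 4.3.3) was fitted to all 18 mice with 6 group means, TMM factors and filterByExpr, which kept 16517 genes. Each mutant was compared with its own controls by the quasi-likelihood F test, two-sided, with Benjamini-Hochberg adjustment over all genes tested at 0.05. Differences between mutants were contrasts of contrasts in the same fit. Groups of 2 controls thus took their spread from all mice (common biological coefficient of variation 0.225). Each library is a different mouse.

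CPM values use TMM-scaled library sizes, log2 CPM a prior count of 2, and per-kb levels the exon length in GENCODE M21. No pair of replicates agreed within sampling noise (chi-square per degree of freedom 6.41 or more). Totals of 8076316 counts or more left 40 counts as the lowest count of a member. The fit was tested on simulated counts. The members and the gene lists were chosen with earlier results of these data known. All 10 members are described, with up to 4 genes of each other list by smallest adjusted p, and the 5 genes most like Dsc1 and Dsc3 by Pearson correlation within groups. Alternatives were DESeq2 1.42.0, RLE factors, other filters, each cohort alone, all 7 controls pooled, a sex term from Xist, a replicate block, and leaving out mice or the 3 controls to which the labels give a second name ending in 2 (KR control 6, LR control 5, KN1 control 7). Mice with Xist at 1 CPM or more, taken as female, numbered 2 of 4 in KR, 1 of 2 in KR controls and 2 of 3 in LR. They numbered 1 of 3 in LR controls, 2 of 4 in KN1 and 1 of 2 in KN1 controls. Sex was not a term of the reported fit.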

Additional observations from a re-analysis of the deposited data

Results flagged for a closer look

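Of 20 groups of 4 mice checked (the 10 genes in KR and in KN1), 2 had a mouse far from the others. Dsg2 was 159 CPM in KR 4, above the other KR mice at 133 to 137 CPM. Jup was 1536 CPM in KR 5, below the other KR mice at 1781 to 1819 CPM. The limit used is the 95% critical value of Dixon's test, which chance passes in about 1 in 20 groups. Without KR 4 the log2 fold change of Dsg2 in KR, and without KR 5 that of Jup in KR, stayed on the same side of 0 and did not pass the test.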

How the results depend on the processing

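Over all alternatives, 224 of 260 member values in KR, 261 of 270 in LR and 241 of 260 in KN1 kept their direction and their side of the threshold. These include fits that left out only a mouse of another cohort, which keep every mouse of the comparison. Called genes and members moved as follows. In KR, 264 genes and 2 members were called, against 1036 and 5 by DESeq2, 672 genes with the cohort alone, 809 genes with 7 controls pooled, 531 genes and 4 members with the sex term, 32 genes and 0 members without the second-named controls, and 5 to 1353 genes and 0 to 5 members leaving out 1 mouse. In LR, 185 genes and 1 member were called, against 539 and 2 by DESeq2, 66 genes alone, 1052 and 2 pooled, and 60 to 246 genes leaving out 1 mouse. In KN1, 325 genes and 0 members were called, against 789 and 1 by DESeq2, 98 and 1 alone, 1867 and 5 pooled, 41 genes without second-named controls, and 2 to 640 genes and 0 to 1 members leaving out 1 mouse. For differences between mutants, 1 member was called by DESeq2 in KR minus LR and in LR minus KN1, and 1 with pooled controls in KR minus KN1 and in LR minus KN1, where 0 were called otherwise.

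The following values turned in sign. With pooled controls Dsg3 was 0.06 in KR and 0.08 in LR, and in KN1 Dsg2 was -0.68, Dsg3 -0.82 and Pkp1 -0.09, Dsc2 in LR minus KN1 was 2.44, and the suprabasal minus basal difference was 0.26 in KN1. Without second-named controls Dsg3 was 0.21 in LR, Dsg1b 0.01 and Dsc2 0.18 in KN1, and Dsc2 -0.15 in KR minus KN1. Leaving out 1 mouse gave a range in LR of -0.40 to 0.21 for Dsg3 and -0.04 to 0.57 for Dsg2. In KN1 it gave -0.38 to 0.18 for Dsc2 (0.05 without KN1 2), -0.03 to 0.69 for Dsg3, -0.02 to 0.37 for Jup, -0.13 to 0.52 for Pkp1 and -0.55 to 0.01 for Dsg1b, and in KR minus KN1 -0.05 to 0.53 for Dsc2. The causes were not tested. The suprabasal minus basal difference kept its sign but moved to -0.90 in LR with pooled controls and to -0.67 in KR with Dsg2 and Dsc2 left out.

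Numbers 2 and 3 are shared by LR mice and their controls, and the labels do not state that the numbers pair animals. Same-numbered mice did not deviate together (correlations of 0.03 and -0.13), but 2 pairs are too few to settle whether they are paired. With the replicate block, 137 genes and 1 member were called in LR, Dsc2 was -1.47 (adjusted p = 0.0369) and Dsg3 turned to 0.27. No such fit was made for KR and KN1, which share at most 1 number with their controls. Depth limits Dsc2 in the KN1 cohort, at 40 to 114 counts.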

Other observations

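Within groups, the 10 genes varied together across mice to different degrees. After subtracting the 6 group means, Pearson's r of log2 CPM over 18 mice was 0.94 for Dsg1a with Dsc3, 0.94 for Dsg1b with Dsp and 0.87 for Dsg1a with Dsp. It was 0.80 for Dsg2 with Dsg3 and lowest, at -0.22, for Dsg2 with Jup. The mice share libraries, depth and cell makeup, so these are descriptions. Among 11700 genes with a mean of at least 5 CPM, those most like Dsc1 were Map2 (0.963), Plxdc2 (0.945), Slc6a14 (0.933), Mapre2 (0.926) and Tprg (0.923). Those most like Dsc3 were Dlg2 (0.967), Scel (0.966), the gene of the cornified envelope protein sciellin, Tmod3 (0.943), Sema3d (0.943) and Mef2a (0.942).

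Of other junctions, hemidesmosomes, which fix basal cells to the basement membrane, had 2 of 9 genes that rose in KN1 by edgeR. Plec had 1269 ± 186 CPM in KN1 mice and 726 ± 38.4 CPM in KN1 controls (SD, n = 4 and 2; log2 fold change 0.81, adjusted p = 0.0173), and Itgb4 had 816 ± 90.9 CPM in KN1 mice and 520 ± 26.7 CPM in KN1 controls (0.65, adjusted p = 0.0456). None of the 9 was called in KR or LR by edgeR, with 3 in KR and 1 in LR past an unadjusted p of 0.05, and DESeq2 called 1 in KR and 0 in LR. Of 15 listed adherens junction genes, 11 were in the table and 0 were called in any mutant by edgeR, with 3 in KR, 1 in LR and 2 in KN1 past an unadjusted p of 0.05 and 0 by DESeq2. Cdh3, the P-cadherin gene of basal cells, had a log2 fold change of 0.40 for KR (adjusted p = 0.155), 0.42 for LR (0.18) and 0.51 for KN1 mice (0.108). Of 16 differentiation regulators, Maf rose in KN1 (1.05, adjusted p = 0.0412), at 254 ± 36.5 CPM in KN1 mice and 122 ± 30.7 CPM in KN1 controls (SD, n = 4 and 2).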
